A study of Drosophila melanogaster with 8 samples.

Results

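The genes described here encode the odorant binding proteins of Drosophila melanogaster. They were taken as every probe set annotated to a single gene whose current symbol is lush or starts with Obp and a digit. The choice used names only, and it gave 51 of the 18952 probe sets on the array and 48 of the 11983 genes measured. The annotation holds 52 such genes, so 4 were not analysed here. Obp50b and Obp50c share probe sets, the probe sets of Obp57d also name the cuticle gene Cpr57A, and Obp83a was not among the genes measured. Where a gene had more than 1 probe set (Obp19a, Obp19c and Obp59a), the one that varied most over the arrays stood for it.

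The study asked how the females of a Zimbabwean population respond to preferred and less preferred mates. All 8 samples came from SZ females, a composite of the 6 isofemale lines ZS2, ZS11, ZS53, ZS56, ZH12 and ZH32, which show strong preference for Zimbabwean males. In the 4 ZxZ samples the females had mated with SZ males. In the 4 ZxM samples they had mated with LHM males, an outbred cosmopolitan (M strain) stock from California. Each sample was a pool of 8 whole females aged 7 days, frozen 30 min after the end of copulation, and hybridised to 1 Affymetrix Drosophila Genome 2.0 array. All females had mated, so the arrays compare kinds of mate and have no unmated baseline. The pools are whole bodies, in which the antennae are a small part, and a lower level could come from fewer cells of a type or from less RNA in each cell. These cannot be told apart.

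Odorant binding proteins are small secreted proteins that fold around a pocket for hydrophobic ligands. In the antenna they are made by the support cells around the olfactory neurons and released into the fluid that bathes the sensory dendrites, where some are needed to carry or sense odorants, as Lush is for the male pheromone cis-vaccenyl acetate. The family reaches well beyond smell: other members are found in taste hairs, in the fat body and haemolymph, and in the male reproductive tract, from which some pass to the female in the ejaculate.

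Values are deposited log2 levels after variance stabilisation, running between 6.05 and 15.15, and differences are ZxZ minus ZxM, so a positive value is higher in ZxZ. The table compresses differences among low values, and the level of a probe set was compared only with itself. The 8 arrays were alike, with Pearson correlations between pairs of arrays of 0.996 to 0.998 across probe sets. The limma fit weighted arrays by how well they followed the model, with the lowest weight, 0.505, on ZxM replicate 2 and the highest, 1.75, on ZxM replicate 1. The female tissues were visible: 13 eggshell genes lay at mean levels of 11.80 to 12.42 in the ZxZ pools and 12.09 to 12.72 in the ZxM pools. Of the 13 accessory gland genes measured, which are expressed in males, 9 were in the lowest 25% of probe sets by mean level.

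No odorant binding protein gene differed between females of the 2 kinds of mating at a false discovery rate of 10%. Of the 48 genes, 23 passed the filter on variability, which kept the genes whose interquartile range over the 8 arrays was above the median. In limma, 0 of these 23 were lower and 0 were higher in ZxZ, while 17.6% of the 5991 genes tested were lower and 1.1% were higher. At an unadjusted p under 0.05 the same fit held 1 of the 23, Obp56e, against 35% of all genes tested. The methods' t-test was also run without the weights and moderation that the methods combine it with. It held 0 of 23 members at an unadjusted p under 0.05, against 23.1% of all genes tested, and 0 of 23 after adjustment, against 10 genes in all (0.167%). In a fit of all 11983 genes without the filter, 0 of the 48 reached an unadjusted p under 0.05, against 18.3% of genes lower and 2.85% higher, and no gene of any kind was called after adjustment. The smallest p of the family there was 0.0715, for Obp56c (limma adjusted p = 0.273). The count of members called lower depended on the arrays used: with each array left out in turn it ran from 0 to 5, while the count called higher stayed at 0. The 5 arose without ZxZ replicate 2, where 33.5% of all genes tested were called.

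The groups also overlapped in every member. In 0 of 48 genes were the 4 ZxZ arrays all on one side of the 4 ZxM arrays, while 8.7% of all genes were separated in this way with ZxZ lower and 1.54% with ZxZ higher. Of the fitted differences 23 were positive and 25 were negative, and their median was -0.01, beside -0.03 over all measured genes. With each array centred on its median, 36 of the 48 were negative, near the share over all measured genes, 9191 of 11983. The median was then -0.03, beside -0.06 over all measured genes. After quantile normalisation 24 of the 48 were negative, beside 5968 of all 11983. In the fit of all genes the 23 tested members had a median difference of 0.00, beside -0.08 over all tested genes. In the fit of the 5991 tested genes alone, the middle value of the 23 members was negative, at -0.04 (Obp57b). The precision of the 23 members in that second fit was lower than usual: the median standard error was 0.101 for them and 0.0600 for all tested genes. Across the tested members the 95% confidence intervals reached down to -0.81 (Obp19c) and up to 0.64 (Obp83b), so for some genes sizeable differences in either direction were not detectable with 4 arrays in each group.

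**Figure D1:**
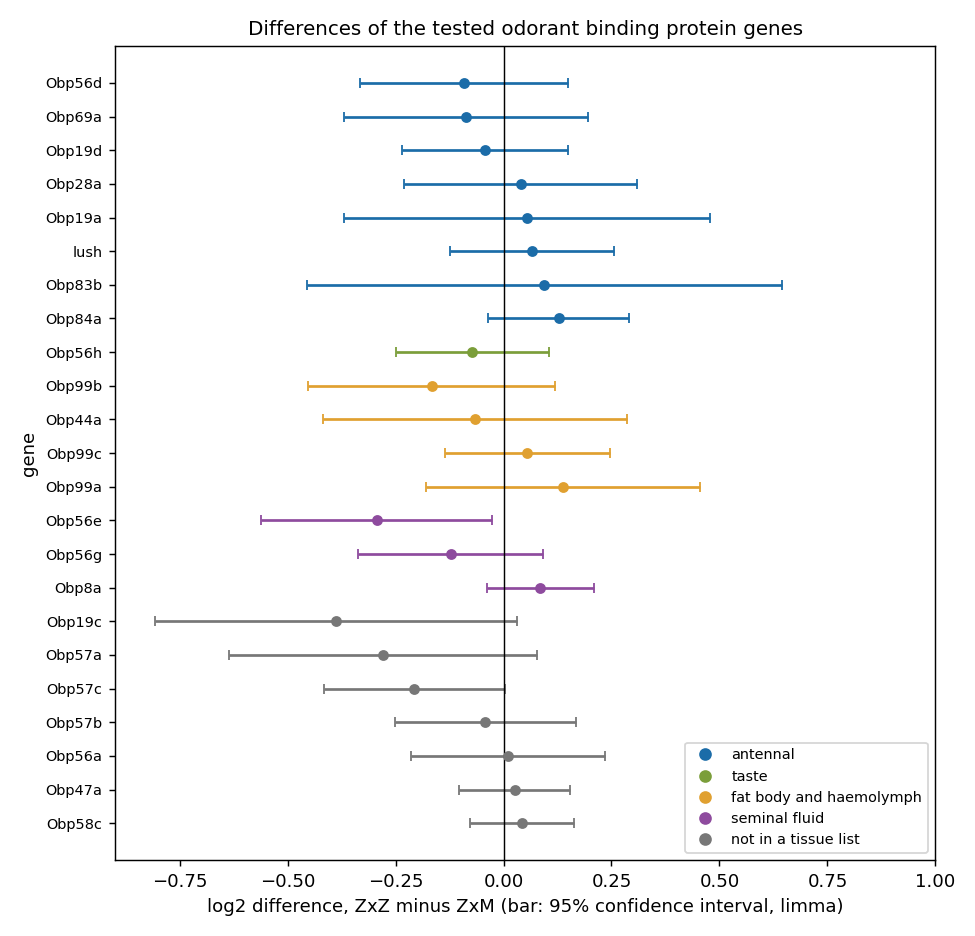
Log2 difference (ZxZ minus ZxM, horizontal axis) of each of the 23 tested odorant binding protein genes, one gene per row, with the 95% confidence interval from limma as a bar and colour for the tissue list. The interval excluded 0 for 1 gene, Obp56e, and none of the 23 was called after adjustment over 5991 genes.

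Of the antennal members, which act at the olfactory hairs, 9 were measured and 8 were tested. Their differences in the fit of all genes ran from -0.09 to 0.11 with a median of 0.01, and 6 were positive and 3 negative. Centring each array on its median gave 6 negative and a median of -0.03, but it also made 9191 of all 11983 measured genes negative. After quantile normalisation 2 were negative and the median was 0.05, beside 5968 of all 11983 negative. No member was called.

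Obp83b (OS-E), a protein of the pheromone-sensing trichoid hairs, had levels of 8.03, 8.95, 8.40 and 8.52 in the ZxZ pools and of 8.60, 8.56, 7.37 and 8.68 in the ZxM pools. The groups overlapped, and a single ZxM pool, replicate 3, lay below all others. The means were 8.48 ± 0.378 in ZxZ and 8.30 ± 0.623 in ZxM (SD, n = 4 arrays each). In limma the difference was 0.09 with a standard error of 0.25 (adjusted p = 0.790).

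Obp19a, another antennal member, was at 7.79, 8.14, 7.92 and 7.99 in ZxZ and at 8.06, 8.04, 7.05 and 8.23 in ZxM. Again ZxM replicate 3 was the low value, and the other 3 ZxM pools were each above 3 of the 4 ZxZ pools. The limma difference was 0.05 ± 0.192 (SE, adjusted p = 0.848). The second probe set of Obp19a was read separately and gave 7.85, 8.19, 8.04 and 7.93 in ZxZ and 8.04, 7.99, 7.32 and 8.05 in ZxM, so both probe sets were lowest in the same pool.

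Obp28a, abundant in the basiconic hairs of the antenna, had levels of 7.93, 8.18, 8.16 and 8.04 in ZxZ and 8.11, 8.11, 7.56 and 8.30 in ZxM. Obp69a measured 7.31, 7.81, 7.51 and 7.46 in ZxZ and 7.73, 7.52, 7.16 and 7.79 in ZxM. In both genes ZxM held the lowest array and ZxZ lay inside the ZxM range for all 4 pools of Obp28a and for 3 of 4 of Obp69a. The differences were 0.04 for Obp28a and -0.09 for Obp69a (limma adjusted p = 0.822 and 0.627).

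Lush, which binds cis-vaccenyl acetate and is needed for the response of the neurons that detect it, stood at 7.14, 7.44, 7.23 and 7.25 in ZxZ and 7.25, 7.14, 6.92 and 7.35 in ZxM. Obp84a, of the coeloconic hairs, stood at 7.06, 7.24, 7.17 and 7.18 in ZxZ and 7.06, 7.10, 6.79 and 7.17 in ZxM. The ranges of the groups overlapped in both. Obp84a had the largest positive difference among the antennal genes, 0.13 with a 95% interval of -0.04 to 0.29 (limma adjusted p = 0.227), and that of lush was 0.07 (limma adjusted p = 0.575).

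Obp19d and Obp56d, found in taste organs as well as in the antenna, had another order of pools. Obp19d was at 10.87, 11.22, 10.99 and 10.74 in ZxZ and 11.02, 10.98, 10.87 and 11.05 in ZxM. Obp56d was at 11.55, 11.82, 11.38 and 11.16 in ZxZ and 11.53, 11.53, 11.65 and 11.47 in ZxM. Both were highest in ZxZ replicate 2 and lowest in ZxZ replicate 4, so that the ZxM range lay wholly within the ZxZ range. Their differences were -0.04 and -0.09 (limma adjusted p = 0.729 and 0.537). Without ZxZ replicate 2, Obp56d was called lower at -0.21 (limma adjusted p = 0.0892), in a fit that called 33.5% of all genes tested. Without ZxZ replicate 3 or ZxZ replicate 4 the difference of Obp56d was positive, at 0.02 and 0.07. Obp59a, which is needed to sense humidity, did not pass the variability filter. It stood at 6.86, 6.90, 7.02 and 6.90 in ZxZ and 6.97, 6.98, 6.84 and 6.90 in ZxM, with a difference of 0.00 in the fit of all genes (limma adjusted p = 0.990).

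**Figure D2:**
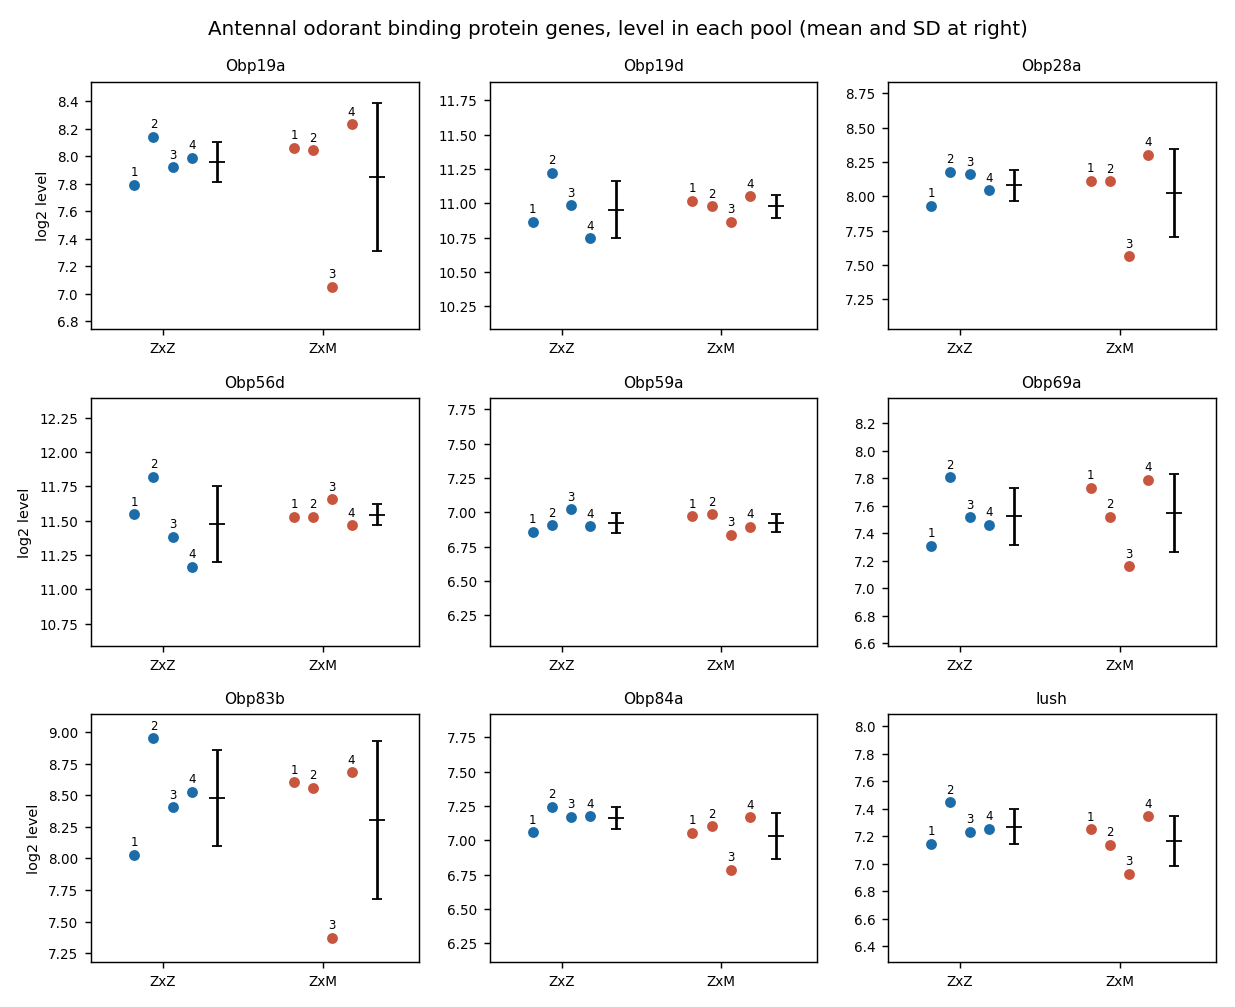
Log2 level of each of the 9 measured antennal genes, ZxZ left and ZxM right in each panel, with a point for each pool, the mean and the SD (n = 4 arrays each). ZxM replicate 3 is the lowest of the 8 pools in 7 of the 9 panels, by 0.66 on the log2 scale for Obp83b and 0.74 for Obp19a, and the groups overlap in every panel.

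The low pool was shared across most of the antennal genes. In 7 of the 9, all but Obp19d and Obp56d, the lowest of the 8 arrays was ZxM replicate 3 (77.8%), whereas this array was the lowest for 12.1% of all measured genes and the highest for 29.6%. Across probe sets this array had the lowest lower quartile (6.75) and median (7.24) of the 8 arrays, and the highest upper quartile (9.64). The shares over all genes were not matched for level, so they are a rough background. Against the mean of the other 3 ZxM pools, ZxM replicate 3 was lower by 1.24 on the log2 scale for Obp83b, a 2.36-fold difference, and by 1.06 for Obp19a, a 2.09-fold difference. The same difference was -0.61 for Obp28a, -0.52 for Obp69a, -0.32 for Obp84a and -0.32 for lush. These sizes were read from the values after the pattern was seen, within 1 group of mates, and they are a description with no test. The same 9 genes come from the same RNA, so they are not 9 separate observations of the pool.

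Some genes of the antenna outside the family were low in the same pool, and others were not. Of 19 other olfactory genes measured (receptors, co-receptors and antennal secreted proteins), 11 had their lowest array in ZxM replicate 3 (57.9%), with a median departure of -0.11 from the other ZxM pools, beside -0.32 for the 9 antennal odorant binding proteins. The departures were large for Os-C, an olfactory-specific secreted protein, at -0.95, and for a10, an antennal chemosensory protein, at -0.86. Other genes of this list departed little or upward in that pool, as Ir76b at -0.002, Ir25a at 0.008 and Snmp2 at 0.087. Os-C had levels of 8.23, 8.81, 8.43 and 8.54 in ZxZ and 8.55, 8.58, 7.63 and 8.60 in ZxM. The olfactory co-receptor Orco was lowest there too but by less, at 7.09, 7.11, 7.10 and 7.24 in ZxZ and 7.03, 7.12, 6.92 and 7.12 in ZxM. Genes of the eye were not low there: 0 of 5 had their lowest array in that pool, and their median departure was 0.14. The low values were not limited to olfactory genes. The 13 eggshell genes had a median departure of -0.40, although 1 of them had its lowest array there, and 6 of 8 testis genes had their lowest array there with a median departure of -0.08. The eggshell gene Cp18 and Muc12Ea departed further than Obp83b, by -1.58 and -1.25, and neither had its lowest array in that pool. The part of other tissues in the values of the odorant binding proteins was not tested.

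**Figure D3:**
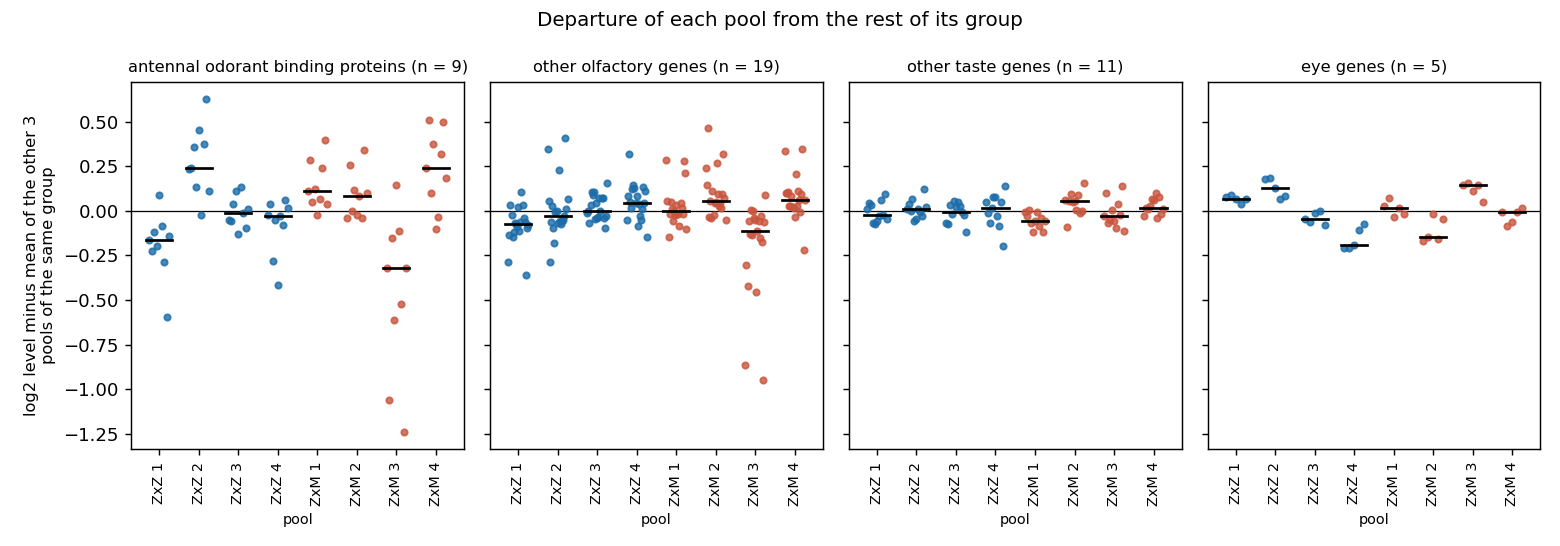
Departure of each pool from the mean of the other 3 pools of its group, in log2 units (vertical axis), for the genes of each list, with 1 point for each gene and pool and the ZxZ pools left of the ZxM pools. The antennal genes had a median of -0.32 in ZxM replicate 3, the other olfactory genes -0.11 and the eye genes 0.14.

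The sign of the comparison for the antennal genes depended on the arrays used. The median difference of the 9 genes, 0.01 with all arrays, was -0.06 without ZxM replicate 3, -0.03 without ZxZ replicate 2 and -0.02 without ZxM replicate 1, and it was 0.01 to 0.04 with each of the other 5 arrays left out. Without ZxM replicate 3, Obp83b differed by -0.16 (limma adjusted p = 0.512), Obp19a by -0.19 (0.253), Obp28a by -0.12 (0.372) and lush by -0.01 (0.921), all with the sign turned. Obp69a moved to -0.20 (limma adjusted p = 0.278) and Obp84a to 0.04 (0.675), with their signs kept. Without ZxM replicate 1 the differences were -0.01 for Obp83b, -0.08 for Obp19a and -0.08 for Obp28a, while lush stayed at 0.01. Without ZxM replicate 3, too, none of the members was called, and no gene of any kind was called in that fit.

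The spread within groups was among the widest on the array for several members. The pooled within-group SD of Obp83b was 0.515, at percentile 99.8 of all measured genes, and its 8 arrays spanned a 2.98-fold range. The SD of Obp19a was 0.394 (percentile 99.5). Of the 48 members 20 lay in the upper 10% of genes by this SD, among them 7 of the 9 antennal genes, and the median SD was 0.203 for the antennal genes, 0.0842 for the family and 0.0714 for all measured genes. Leaving out ZxM replicate 3 brought Obp19a to 0.131 (percentile 90.6) and Obp28a to 0.113 (percentile 85.9), while Obp83b stayed wide at 0.296 (percentile 99.0). The remaining spread of Obp83b lay in the ZxZ pools, between 8.03 in replicate 1 and 8.95 in replicate 2.

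The taste list held 4 measured genes. Obp49a, which binds bitter compounds and lowers the response of sweet-sensing neurons, stood at 8.35, 8.46, 8.33 and 7.89 in ZxZ and 8.34, 8.30, 8.33 and 8.43 in ZxM, and ZxZ replicate 4 alone lay apart. Obp19b was at 8.0, 8.12, 8.0 and 7.89 in ZxZ and 8.02, 7.91, 8.01 and 8.10 in ZxM, with the same pool lowest. Obp57e, of the leg taste hairs, was near the floor of the array at 6.38 to 6.47 in ZxZ and 6.38 to 6.45 in ZxM. The only tested member of the list was Obp56h, which measured 7.49, 7.19, 7.42 and 7.31 in ZxZ and 7.40, 7.32, 7.31 and 7.63 in ZxM, with a difference of -0.07 (limma adjusted p = 0.515). Of 11 other taste genes, mostly gustatory receptors and pickpocket channels, 1 was tested and 0 were called, and 5 were in the lowest 25% by level.

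The fat body and haemolymph list held 4 genes, all tested and none called. Obp99a measured 11.86, 11.37, 11.33 and 11.89 in ZxZ and 11.61, 11.22, 11.50 and 11.21 in ZxM. The ZxZ pools fell into a high and a low pair, and the ZxM range overlapped the lower pair. The difference was 0.14 with a 95% interval of -0.18 to 0.45 (limma adjusted p = 0.484). Obp99c measured 12.84, 12.81, 12.56 and 12.68 in ZxZ and 12.70, 12.49, 12.82 and 12.46 in ZxM, a difference of 0.06 (limma adjusted p = 0.647), and its groups overlapped over most of their range.

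Obp99b, known from the fat body of the head for its sex-specific expression, had the largest fitted difference, in size, of this list. Its levels were 7.87, 7.69, 7.76 and 7.83 in ZxZ and 7.66, 7.95, 8.08 and 8.35 in ZxM. The lowest array of all was a ZxM pool, and the other 3 ZxM pools were above every ZxZ pool. The difference was -0.17 with a 95% interval of -0.45 to 0.12 (limma adjusted p = 0.350). With each array left out in turn, that difference ran from -0.47 to 0.05, and Obp99b was called in none of these fits. Obp44a, a haemolymph protein, was at 10.55, 11.26, 10.56 and 10.57 in ZxZ and 10.75, 10.61, 11.18 and 10.53 in ZxM, with 1 high pool in each group and a difference of -0.07 (limma adjusted p = 0.773). That difference was positive, at 0.02 to 0.09, without ZxZ replicate 3, ZxZ replicate 4, ZxM replicate 1 or ZxM replicate 3. The fat body markers as a list were slightly positive, with a median of 0.10 over 8 genes. Of these 7 were tested and 1, the yolk protein gene Yp3, was called (higher by 0.17, limma adjusted p = 0.096). Over all genes tested, 1.1% were called higher in ZxZ.

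The seminal fluid list held 7 genes whose proteins have been found in the ejaculate, and 4 of them (Obp22a, Obp51a, Obp56f and Obp56i) were in the lowest 25% of probe sets. These 4 lay between 6.29 and 6.67 in the ZxZ pools and between 6.29 and 6.69 in the ZxM pools, where expression cannot be told from background. The remaining 3 were tested, and none was called.

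Obp56e had the smallest p of the tested members. It stood at 8.84, 9.01, 8.61 and 8.46 in ZxZ and at 9.20, 8.82, 8.82 and 8.87 in ZxM. The 2 lowest pools were ZxZ and the highest was ZxM replicate 1, but ZxZ replicate 2 lay above 3 of the ZxM pools. Its difference was -0.29 with a standard error of 0.121 and a 95% interval of -0.56 to -0.03, and the adjusted p in limma was 0.120. Left out in turn, ZxZ replicate 1, ZxZ replicate 2, ZxM replicate 2 and ZxM replicate 4 each took the gene past the threshold, at -0.37, -0.40, -0.35 and -0.42 (limma adjusted p = 0.0528, 0.0651, 0.0848 and 0.0355). In these fits 43%, 33.5%, 35.4% and 47.5% of all genes tested were called. Without ZxZ replicate 3, ZxZ replicate 4 or ZxM replicate 1 the difference of Obp56e was -0.17, -0.14 and -0.15 (limma adjusted p = 0.460, 0.468 and 0.354). No gene of any kind was called in those fits.

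Obp56g, which males need to form the mating plug, was at 8.83, 9.0, 8.89 and 8.63 in ZxZ and 9.11, 8.88, 8.68 and 8.97 in ZxM, a difference of -0.12 (limma adjusted p = 0.361). Obp8a was at 7.31, 7.10, 7.25 and 7.17 in ZxZ and 7.10, 7.21, 7.06 and 7.19 in ZxM, a difference of 0.09 (limma adjusted p = 0.281). In both the groups overlapped. Transcripts of the male accessory gland were looked at beside these genes: of 13 measured, 5 were tested and 1 was called, the sex peptide gene SP. Over all genes tested, 1.1% were called higher in ZxZ. SP was at 6.68, 6.78, 6.72 and 6.79 in ZxZ and 6.56, 6.64, 6.58 and 6.60 in ZxM, higher by 0.16 (limma adjusted p = 0.087). Every ZxZ pool was above every ZxM pool, as for 1.54% of all measured genes. The mean level of SP was in the lowest 25% of probe sets, as were the 4 dim seminal fluid genes, so its expression cannot be told from background either. The part of RNA from the male in the seminal fluid genes was not tested, so the list does not say which sex made these transcripts.

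**Figure D4:**
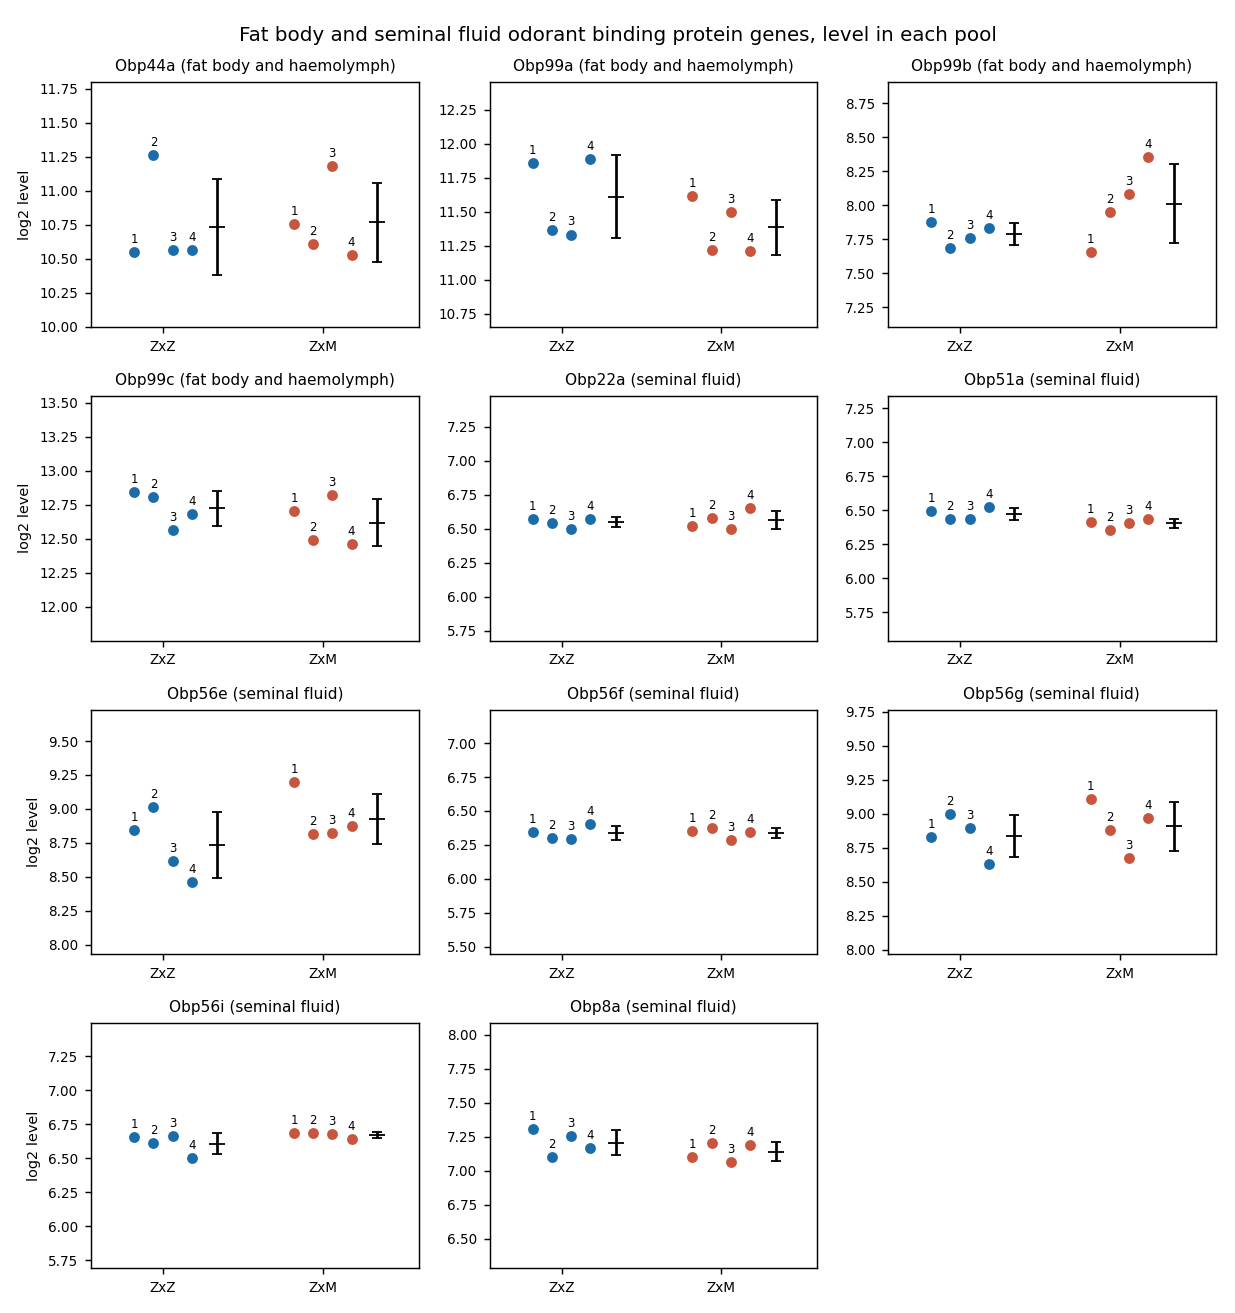
Log2 level of each of the 4 fat body and haemolymph genes and the 7 seminal fluid genes, ZxZ left and ZxM right in each panel, with a point for each pool, the mean and the SD (n = 4 arrays each). The groups overlap in all panels, and Obp22a, Obp51a, Obp56f and Obp56i stay below 6.78, the limit of the lowest 25% of probe sets.

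Set side by side, the lists overlapped in their differences. In the fit of all genes the median difference was 0.01 for the 9 antennal genes, 0.05 for the 4 fat body and haemolymph genes, and -0.03 for the 7 seminal fluid genes, with ranges of -0.09 to 0.11, -0.20 to 0.17 and -0.24 to 0.07. After quantile normalisation of the arrays the medians were 0.05, 0.09 and -0.02, and with each array centred on its median they were -0.03, 0.04 and -0.06. These are descriptions of small lists, and the difference between lists was not tested. In ZxM replicate 3, where the antennal genes had a median departure of -0.32, that of the fat body and haemolymph genes was 0.21 and that of the seminal fluid genes was -0.09, and the lowest array was this pool in 7 of 9, 0 of 4 and 2 of 7 genes.

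The other 24 members belonged to none of the lists. Their differences in the fit of all genes ran from -0.34 to 0.10 with a median of -0.01, and 7 were tested with 0 called. The smallest p-values among the 7 tested were those of Obp57c, Obp19c and Obp57a. Obp57c measured 9.67, 9.88, 9.51 and 9.60 in ZxZ and 9.98, 9.52, 9.84 and 9.76 in ZxM, a difference of -0.21 with a 95% interval of -0.42 to 0.00 (limma adjusted p = 0.147). Obp57a, its neighbour on chromosome arm 2R, measured 9.85, 10.41, 10.04 and 9.47 in ZxZ and 10.32, 9.80, 10.27 and 10.20 in ZxM, a difference of -0.28 (limma adjusted p = 0.227). In both genes ZxM replicate 2 was lower than the other 3 ZxM pools. Obp57c was called lower without ZxZ replicate 1 (-0.27, limma adjusted p = 0.0694), ZxZ replicate 2 (-0.28, 0.0666), ZxM replicate 2 (-0.27, 0.0626) or ZxM replicate 4 (-0.29, 0.0422), and Obp57a without ZxZ replicate 2 (-0.41, 0.0766). The fits that called these genes lower also called 33.5% to 47.5% of all genes tested. Leaving out other arrays had the opposite effect: Obp57c was -0.12 without ZxZ replicate 3, -0.13 without ZxZ replicate 4 and -0.10 without ZxM replicate 1, and Obp57a was -0.09 without ZxZ replicate 4.

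Obp19c, on the X chromosome beside Obp19a, Obp19b and Obp19d, had the largest fitted difference, in size, of any member, -0.39 with a 95% interval of -0.81 to 0.03 (limma adjusted p = 0.168). Its levels were 10.17, 10.50, 9.41 and 9.88 in ZxZ and 10.22, 10.32, 10.18 and 10.43 in ZxM, so the ZxM pools lay close together. ZxZ replicates 1, 3 and 4 lay below every ZxM pool, replicate 1 only just, and ZxZ replicate 2 lay above every ZxM pool. It was called lower without ZxZ replicate 1 (-0.62, limma adjusted p = 0.0512) or ZxZ replicate 2 (-0.58, 0.0645), where 43% and 33.5% of all genes tested were called. The difference of Obp19c was -0.05 without ZxZ replicate 3 (limma adjusted p = 0.814) and -0.17 without ZxZ replicate 4 (0.590). The second probe set of the gene was at 6.67, 6.83, 6.68 and 6.79 in ZxZ and 6.89, 6.79, 6.66 and 6.74 in ZxM and did not show ZxZ replicate 3 low in the same way.

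The family sits in clusters on the chromosomes. With up to 5 other genes allowed between neighbours, 36 of the 52 annotated genes fell into 9 clusters and 16 stood alone. The cluster of Obp56a to Obp56i on 2R had 7 negative and 2 positive differences with a median of -0.04, and its members span the antennal, taste, seminal fluid and unlisted genes. The 3 genes Obp57a to Obp57c were all negative with a median of -0.16, though Obp57b was close to 0 at -0.006. In the same fit 7492 of all 11983 measured genes were negative. The cluster of Obp99a to Obp99d on 3R had 3 positive and 1 negative with a median of 0.07, and that of Obp19a to Obp19d had 1 positive and 3 negative with a median of -0.02. No cluster held a called gene, and a cluster was not tested as a unit.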

How the data were processed

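Scanner output was not used. The deposited table holds log2 values: per their methods the authors corrected background, normalized and transformed the arrays with VSN and summarised probes by RMA (affy, R 2.8.1). Detection calls were not used, so a low level cannot be told from no expression. The number of arrays limits the precision. The sample titles call the pools biological replicates, and per the paper's methods each had its own RNA extraction and hybridisation. Nothing in the labels says whether pools shared cultures. The p-values measure the spread between these pools, in which biological and technical parts cannot be told apart. Probe sets were named from the platform annotation, with symbols updated by gene number against Release 6 plus ISO1 MT.

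The methods' filter of 0.5 on the interquartile range was read as a quantile, leaving 5991 of 11983 genes. Differences were fitted in R 4.3.3 with limma 3.58.1 (array weights by REML, eBayes, two-sided, Benjamini-Hochberg, called at 10%). Members outside the filter took their values from the same fit of all genes, which also gave the signs and medians of lists. The script was tested on simulated data. Every member could be named. Full values are given for the antennal, fat body and seminal fluid lists, other members by range, with up to 4 of the smallest p. Members and lists were chosen with earlier results of these data known. Alternatives covered filter, probe set, normalization, weights, test, prior, replicate block and each array left out.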

Additional observations from a re-analysis of the deposited data

Results flagged for a closer look

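In 96 groups of 4 pools (48 genes, 2 matings), 7 had a pool far from the other 3 (Dixon's gap ratio above its 95% critical value). Chance flags about 1 in 20 groups. Low pools were ZxM replicate 3 for Obp83b at 7.37, for Obp19a at 7.05 and for Obp50e at 6.52. High pools were ZxZ replicate 2 for Obp44a at 11.26, ZxM replicate 1 for Obp56e at 9.20, and ZxZ replicate 4 for Obp47b at 7.03 and for Obp85a at 6.74. The levels of Obp50e and Obp85a were in the lowest 25% of probe sets.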

How the results depend on the processing

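Over the 18 alternatives that tested any member, 0 members were called higher in ZxZ, and members were called lower in 5. Centring each array on its median gave 2 lower (Obp56e at -0.35 and Obp57c at -0.26, limma adjusted p = 0.0602 and 0.0784) and 41.7% of all genes called. Leaving out 1 array at a time gave 0 to 5 members lower, with 5 without ZxZ replicate 2 (Obp19c, Obp56d, Obp56e, Obp57a and Obp57c), 3 without ZxZ replicate 1, and 2 each without ZxM replicate 2 or ZxM replicate 4. In that order, these fits called 33.5%, 43%, 35.4% and 47.5% of all genes tested. Over every fit with 1 array left out, all genes called ranged from 0 to 2844, with 0 without ZxZ replicate 3 or 4 or without ZxM replicate 1 or 3. Counts over all genes were 0 without weights, without the filter and after quantile normalization, 10 by the methods' t-test, 1353 with the probe set of highest mean, and 1123 as reported. Of 391 values of single genes 14 became called (Obp56e 5, Obp57c 5, Obp19c 2, Obp56d 1, Obp57a 1) and 40, in 13 of 23 genes, changed sign while uncalled. The cause was not tested. The median difference of the family stayed between -0.03 and 0.01 with each array left out, that of the antennal genes between -0.06 and 0.04, of the fat body genes between -0.06 and 0.15, and of the seminal fluid genes between -0.05 and -0.01. An interquartile range of at least 0.5 left 51 genes and 0 members.

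Per the paper's methods, each of the 4 replicates held females of both matings. Deviations of pools with the same replicate number correlated at 0.146, -0.230, -0.188 and 0.160, with 2 of 4 best with their own number. So few values cannot show whether the replicates acted as blocks. With the replicate block 0 members were called and 1 gene in all was called, and the median of the antennal genes was -0.04. At an unadjusted p under 0.05 that limma fit held 5 of 23 members, against 26.8% of all genes tested. Obp56e then had -0.29 (limma adjusted p = 0.135).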

Other observations

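Over all 11983 genes, 5 were lower in ZxM replicate 3 than in every other pool by at least 0.5 on the log2 scale. They were Obp19a (by 0.74), CG17192 (by 0.74), Obp83b (by 0.66), Os-C (by 0.60) and a10 (by 0.59), so 4 of the 5 are genes of the antennal or olfactory lists. At a gap of at least 0.2 there were 23 genes, of which 5 were antennal odorant binding proteins and 4 were other olfactory genes. The choice of the pool and of these gaps was made after the values were seen, and no test was run.

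ZxZ replicate 2 was the highest pool for 13 of the 48 members (27.1%) and for 6 of the 9 antennal genes, beside 9.35% of all measured genes. It was also the highest for 3 of 5 eye genes, and for 3 of the 19 other olfactory genes. ZxZ replicate 4 was the lowest for 10 of the 48 members (20.8%), beside 23.3% of all measured genes.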
